A study of Rattus norvegicus with 18 samples.

Results

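The core of the insulin, insulin-like growth factor (IGF) and PI3K-Akt pathway was followed through its 8 genes Igf1r, Insr, Irs2, Pik3ca, Pik3r1, Akt1, Foxo1 and Foxo3. They were found by the names of the rows, all 8 among the 31463 rows of the count tables, and all 8 passed the filter on low counts that left 14398 genes for testing. The study asked whether the secreted products of human glial progenitor cells protect rat cortical neuroglial cultures from glutamate. It addressed PI3K-Akt signalling with an inhibitor selective for PI3Kγ, and through vesicle proteins and differing mRNAs that it assigned to the pathway. RNA was sequenced from 18 libraries, 3 in each of 6 groups. Control cultures received no glutamate, and the Glutamate group received it at 100 µM on day 10 in vitro. Memantine cultures received 100 µM memantine together with glutamate. Cultures of the Glutamate_vesicles, Glutamate_secret and Glutamate_BPC groups were given material secreted by the progenitor cells 1 day before glutamate, namely extracellular vesicles in the first. Which of the last 2 received proteins of limited size and which the whole secretome cannot be told from the labels, and their names are used as given. RNA was taken 4 h after the glutamate model had been completed. All cultures came from the cortex of newborn Wistar rats, and an inhibitor of cell division had been used to hold back the glia. The study's methods describe repeats on separate cultures and a correction for day, but the labels do not tie the replicate numbers to animals, platings or days. The p-values below measure the spread between these libraries, which may in part be technical.

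Insulin and IGF-1 bind receptor tyrosine kinases at the cell surface, which recruit adaptor proteins such as Irs2. The adaptors activate PI3K, an enzyme of a catalytic and a regulatory subunit that makes the membrane lipid PIP3, and PIP3 brings the kinase Akt to the membrane. In neurons Akt signalling is known as a survival signal, and Akt holds the transcription factors Foxo1 and Foxo3 in the cytoplasm by phosphorylation. Most of this regulation is at the level of protein and phosphate groups, whereas the values here are of mRNA.

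Library totals ranged from 8409574 to 17206354 counts. Ribosomal RNA (rRNA) took 3.04% to 43.0% of the counts of a library, with the highest share and the lowest total both in Control 1. Its TMM factor, the number by which edgeR multiplies a library's size to put libraries on 1 scale, was 0.417 against 0.555 to 1.58 in the other libraries. Markers of the cell types were present as labelled for a mixed culture. The summed level of 8 neuron markers was 1995 to 2701 CPM (counts of a gene scaled to a library of fixed size) in Control, 570 to 1122 in Glutamate and 640 to 3296 in Memantine. It was 560 to 888 in Glutamate_vesicles, 465 to 1041 in Glutamate_secret and 631 to 1064 in Glutamate_BPC. In these bulk samples fewer neurons and less RNA per neuron cannot be told apart. Astrocyte markers summed to 2622 CPM or more in every library, oligodendrocyte lineage markers to 374 or more, and microglia markers to 26.6 or more. Fibroblast and mural cell markers reached 19.5 CPM at most and endothelial markers 4.21, and no marker was at 0 in all libraries.

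The 250 bases before the start site that RefSeq lists (assembly GRCr8) were available for 6 of the 8 genes. The stretches of Insr, Pik3r1 and Foxo1 are shown, because among these 6 they belong to the genes that differed most between replicate numbers in the same direction. They lie on chr12:6128804-6129053 (minus strand), chr2:34697661-34697910 (minus strand) and chr2:138462724-138462973 (plus strand), and are written 5′ to 3′ with CG pairs, the sites of DNA methylation, in capitals.
Insr: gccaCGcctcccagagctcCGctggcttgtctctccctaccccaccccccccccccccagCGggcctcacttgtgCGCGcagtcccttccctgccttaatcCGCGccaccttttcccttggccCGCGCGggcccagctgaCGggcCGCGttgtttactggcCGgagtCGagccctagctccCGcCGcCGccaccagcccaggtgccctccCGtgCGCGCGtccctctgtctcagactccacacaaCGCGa
Pik3r1: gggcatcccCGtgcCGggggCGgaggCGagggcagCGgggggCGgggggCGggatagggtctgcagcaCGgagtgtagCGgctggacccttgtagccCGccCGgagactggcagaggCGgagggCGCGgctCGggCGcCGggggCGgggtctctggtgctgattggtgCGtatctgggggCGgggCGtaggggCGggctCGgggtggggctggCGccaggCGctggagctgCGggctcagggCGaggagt
Foxo1: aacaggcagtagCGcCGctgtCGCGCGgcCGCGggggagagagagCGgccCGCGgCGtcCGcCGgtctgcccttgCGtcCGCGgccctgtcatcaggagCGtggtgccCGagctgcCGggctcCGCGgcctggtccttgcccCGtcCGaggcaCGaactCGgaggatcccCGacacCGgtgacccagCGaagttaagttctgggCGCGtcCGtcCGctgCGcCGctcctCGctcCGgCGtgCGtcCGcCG
They hold 24, 27 and 40 CG pairs, and Igf1r holds 45 in its stretch. The median over all 33469 listed stretches was 5, and 10.9% of them had at least as many as Insr. Akt1 had 5. The letters GTAAACA, a core to which FoxO factors bind, were searched on both strands. They occurred in Insr, beginning 100 bases before the start on the shown strand in the reverse form TGTTTAC, and in 3.21% of all stretches. The listed start of Pik3ca lies at its first coding codon, so that its stretch is no promoter and is not described. Irs2 and Foxo3 are named only.

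None of the 8 genes differed among the 6 groups by the quasi-likelihood F test of edgeR with Benjamini-Hochberg adjustment (adjusted p of 1.0 for each), and none had an unadjusted p below 0.05. Over all tested genes 0.00695% were called at an adjusted p below 0.05 and 7.75% had an unadjusted p below 0.05. DESeq2 called none of the 8 either. The libraries differed by replicate number, which went with the rRNA share. In the values below, the 3 numbers of a group are always those of replicates 1, 2 and 3, in CPM at the TMM-scaled library size.

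Igf1r, the receptor for IGF-1, was at 1.14, 3.19 and 4.15 CPM in Control and at 1.68, 6.03 and 3.70 in Glutamate. It was at 4.51, 8.50 and 2.23 CPM in Memantine and at 2.59, 8.95 and 5.01 in Glutamate_vesicles. In Glutamate_secret it was at 1.42, 5.44 and 3.44 CPM, and in Glutamate_BPC at 2.08, 4.27 and 2.71. Replicate 2 was the highest of its group in 5 of 6 groups, and the ranges of all groups next to each other in the order of the means overlapped. The highest mean, 5.52 ± 3.21 CPM (SD, n = 3), was that of Glutamate_vesicles, and the lowest, 2.83 ± 1.54 (SD, n = 3), that of Control. Its counts were low, from 4 to 223 per library.

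Insr, the insulin receptor, was at 2.28, 2.99 and 3.98 CPM in Control and at 0.258, 8.57 and 2.92 in Glutamate. Memantine libraries held 1.83, 13.95 and 0.862 CPM, and Glutamate_vesicles libraries 1.20, 8.22 and 2.28. It was at 0.945, 8.14 and 0.905 CPM in Glutamate_secret and at 0.634, 2.31 and 0.868 in Glutamate_BPC. The second library stood far above the other 2 in Glutamate, Memantine, Glutamate_vesicles and Glutamate_secret, while the Control libraries lay close together at the TMM-scaled size. As CPM of the unscaled library total they were at 0.951, 4.10 and 5.65, and the value of Control 1 rested on 8 counts. The Insr means ran from 5.55 ± 7.29 CPM (SD, n = 3) in Memantine to 1.27 ± 0.905 (SD, n = 3) in Glutamate_BPC, and neighbours in that order overlapped. In 6 of 18 libraries the value rested on 10 counts or fewer, which limits the precision.

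**Figure D1:**
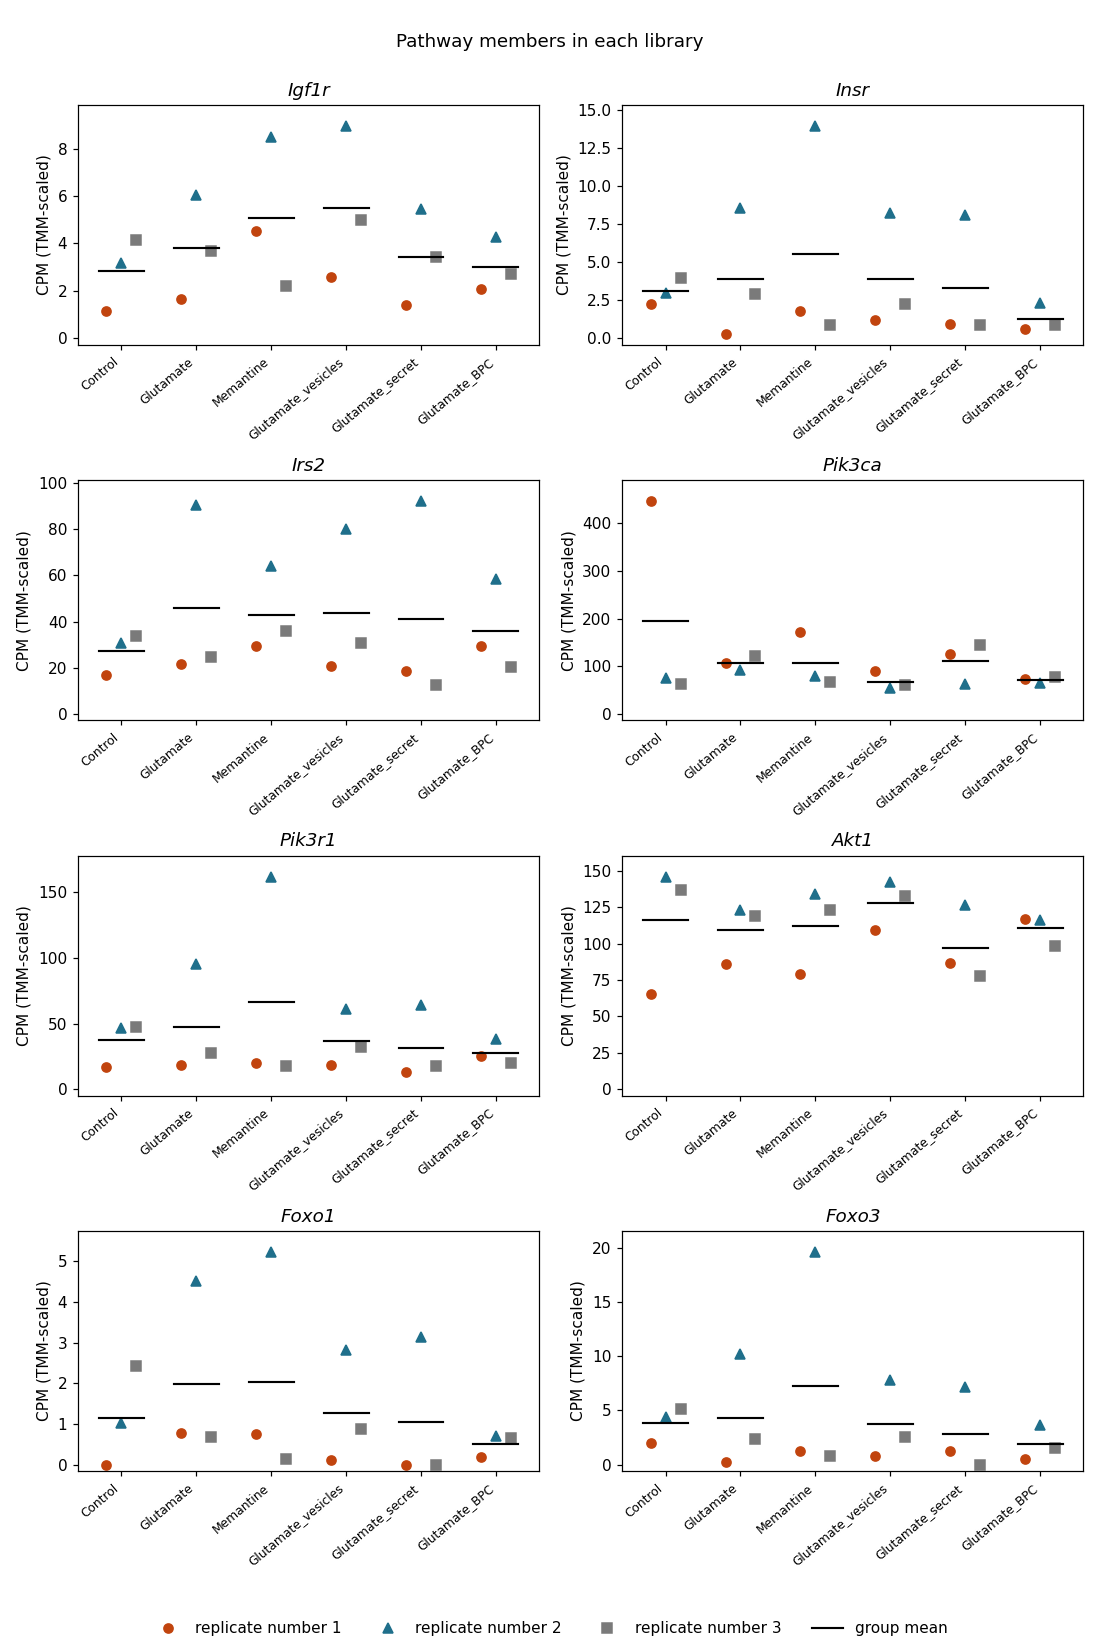
Level of each of the 8 genes in CPM at the TMM-scaled library size (vertical axis) in the 18 libraries by group (horizontal axis). Symbols give the replicate number and bars the mean of 3 libraries. Replicate 2, drawn as a triangle, is the highest in 5 of 6 groups for every gene except Pik3ca, which stands at 446 CPM in Control 1.

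Irs2, the adaptor that links both receptors to PI3K, was at 16.9, 30.6 and 33.9 CPM in Control and at 21.6, 90.7 and 24.7 in Glutamate. Its level was 29.2, 64.1 and 35.9 CPM in Memantine and 20.7, 80.1 and 30.5 in Glutamate_vesicles. Glutamate_secret libraries held 18.4, 92.1 and 12.5 CPM, and Glutamate_BPC libraries 29.4, 58.3 and 20.4. Glutamate_secret thus contained both the highest and the lowest Irs2 value of the series, 92.1 in replicate 2 and 12.5 in replicate 3. The group means ran from 45.7 ± 39.1 CPM (SD, n = 3) in Glutamate to 27.1 ± 9.06 (SD, n = 3) in Control, and all ranges next to each other in that order overlapped. Irs2 had at least 59 counts in each library.

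Pik3ca, the catalytic subunit p110α of PI3K, was at 446, 74.7 and 62.0 CPM in Control and at 108, 91.5 and 121 in Glutamate. Its level was 171, 79.0 and 67.3 CPM in Memantine and 89.1, 54.1 and 60.0 in Glutamate_vesicles. In Glutamate_secret it was 126, 63.0 and 144 CPM, and in Glutamate_BPC 73.2, 63.9 and 76.6. Control 1 was the highest of the 18 libraries, 446 CPM against at most 171 in the others. Replicate 2 was the highest of its group in 0 of 6 groups and the lowest in 4, the opposite of the other 7 genes. The Pik3ca means ran from 194 ± 218 CPM (SD, n = 3) in Control to 67.7 ± 18.8 (SD, n = 3) in Glutamate_vesicles. Pik3ca counts were between 706 and 1595 in every library, a 2.26-fold span, whereas Akt1 counts spanned 15.5-fold, Irs2 counts 35.3-fold and Pik3r1 counts 48.5-fold. As CPM of the unscaled library total, Pik3ca was at 186, 102 and 88.0 in Control and at 78.5, 78.3 and 77.8 in Glutamate_vesicles. On these totals replicate 2 was the highest of its group in Glutamate (138.6), Glutamate_secret (91.94) and Glutamate_BPC (79.98).

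Pik3r1, the regulatory subunit p85α that holds and stabilises the catalytic one, was at 17.1, 46.9 and 47.5 CPM in Control and at 18.3, 95.3 and 27.5 in Glutamate. In Memantine it was at 20.2, 162 and 17.8 CPM, and in Glutamate_vesicles at 18.04, 60.8 and 32.2. Glutamate_secret libraries had 12.8, 63.9 and 17.6 CPM of it, and Glutamate_BPC libraries 25.0, 38.3 and 20.1. The Memantine libraries differed most, with replicate 2 at 162 CPM and the others at 20.2 and 17.8. The means lay between 66.6 ± 82.5 CPM (SD, n = 3) in Memantine and 27.8 ± 9.45 (SD, n = 3) in Glutamate_BPC, and every range overlapped with the next.

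Akt1, the kinase that PIP3 recruits, was at 65.4, 146 and 137 CPM in Control and at 86.0, 123 and 119 in Glutamate. It was at 79.0, 134 and 123 CPM in Memantine and at 109, 142 and 133 in Glutamate_vesicles. Glutamate_secret libraries held 87.0, 127 and 78.0 CPM, and Glutamate_BPC libraries 117, 116 and 98.1. Among the 8 genes, the TMM-scaled group means of Akt1 varied least. They ran from 128 ± 17.2 CPM (SD, n = 3) in Glutamate_vesicles to 97.2 ± 25.9 (SD, n = 3) in Glutamate_secret and differed 1.32-fold. Beside the 2.26-fold span of Pik3ca counts, however, Akt1 counts spanned 15.5-fold over the libraries. Over the 9 group comparisons its 95% intervals on the log2 scale lay between -0.98 and 0.95, so that a change of Akt1 mRNA by more than about that size was outside every interval.

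Foxo1, a FoxO transcription factor that acts when Akt is inactive, was at 0, 1.03 and 2.42 CPM in Control and at 0.775, 4.51 and 0.681 in Glutamate. Memantine libraries were at 0.752, 5.22 and 0.144 CPM, and Glutamate_vesicles libraries at 0.0997, 2.81 and 0.875. It was at 0, 3.14 and 0 CPM in Glutamate_secret and at 0.181, 0.692 and 0.651 in Glutamate_BPC. Foxo1 had no count in 3 libraries, 3 counts or fewer in 6 and 10 or fewer in 10, and its highest count was 94. Its means ran from 2.04 ± 2.77 CPM (SD, n = 3) in Memantine to 0.508 ± 0.284 (SD, n = 3) in Glutamate_BPC, which is within the spread of the libraries.

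Foxo3, the second FoxO factor, was at 2.00, 4.42 and 5.12 CPM in Control and at 0.258, 10.2 and 2.33 in Glutamate. In Memantine its level was 1.29, 19.6 and 0.790 CPM, and in Glutamate_vesicles 0.797, 7.78 and 2.58. It was at 1.26, 7.17 and 0 CPM in Glutamate_secret and at 0.543, 3.69 and 1.52 in Glutamate_BPC. Replicate 2 was again the highest in every group that received glutamate. Foxo3 means ran from 7.23 ± 10.7 CPM (SD, n = 3) in Memantine to 1.92 ± 1.61 (SD, n = 3) in Glutamate_BPC, with overlap between all neighbours, and 6 of 18 libraries had 10 counts or fewer.

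Glutamate against Control asks what the excitotoxic stimulus did to these mRNAs. By the quasi-likelihood test of edgeR 0 of 8 were called, against 0% of all tested genes, and 0 of 8 had an unadjusted p below 0.05 against 8.11%. The log2 fold changes ran from -0.86 (Pik3ca) to 0.75 (Irs2), with 6 genes above and 2 below 0, a median of 0.34 and a median of 0.08 over all tested genes. Pik3ca had the smallest p, with a log2 fold change of -0.86 ± 0.61 (SE, 95% interval -2.16 to 0.44) and an adjusted p of 0.912 by edgeR. Without Control 1, the library at 446 CPM, its log2 fold change was 0.64. The interval of Foxo3 reached from -2.80 to 3.08 and that of Insr from -2.14 to 2.82, so that changes of several-fold in either direction remained within the spread of these libraries.

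Memantine against Glutamate asks whether blocking the NMDA type of glutamate receptor altered them. Again 0 of 8 genes were called, against 0% of all genes, and 0 of 8 had an unadjusted p below 0.05 against 5.08%. The log2 fold changes lay between -0.09 (Irs2) and 0.75 (Foxo3), with a median of 0.22 beside -0.02 over all genes. Igf1r had the smallest p, at a log2 fold change of 0.41 ± 0.68 (SE) and an adjusted p of 0.999 by edgeR. Without Memantine 2 its value was -0.20. In the same comparison 5 of 8 neuron markers were higher in Memantine at an unadjusted p below 0.05.

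**Figure D2:**
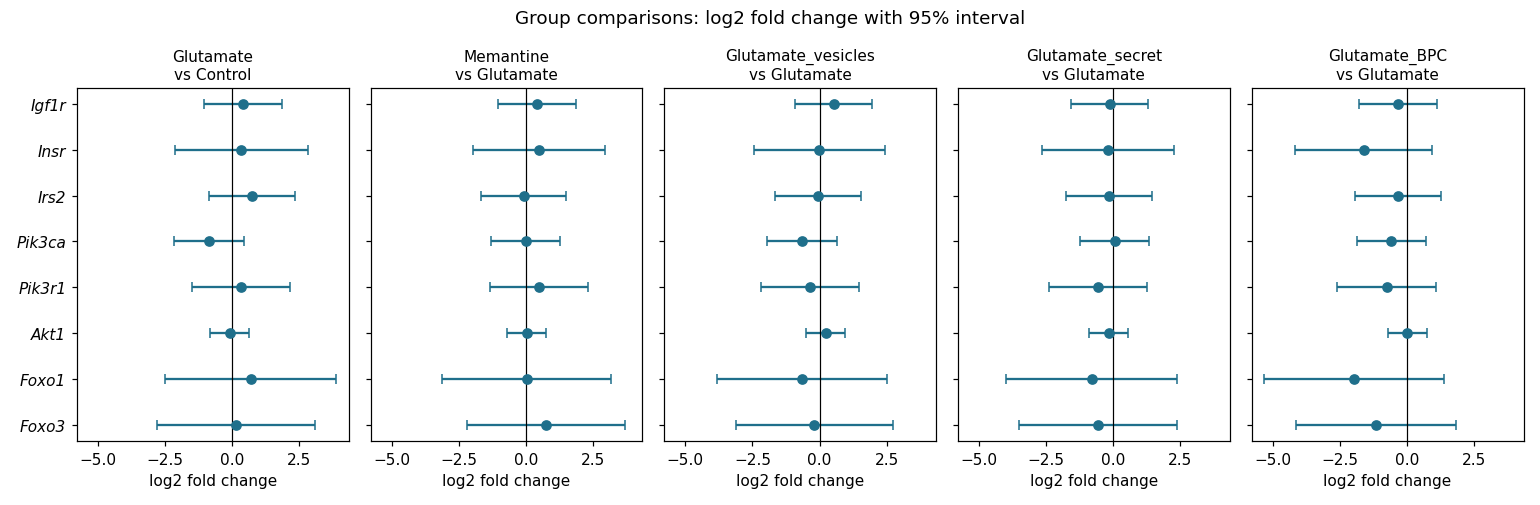
Log2 fold change of the 8 genes (horizontal axis) in 5 comparisons, with the first-named group minus the second. Points are estimates of edgeR from all 18 libraries and bars their 95% intervals. Every interval spans 0, and the intervals of Foxo1, Foxo3 and Insr are the widest and those of Akt1 the narrowest.

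The 3 secreted preparations were each compared with Glutamate, which these comparisons share as the reference. In Glutamate_vesicles 0 of 8 genes were called (0% of all genes) and 0 had an unadjusted p below 0.05 (1.08%). The log2 fold changes lay between -0.65 (Pik3ca) and 0.53 (Igf1r), with a median of -0.13 beside -0.01 over all genes. Pik3ca had the smallest p here, with a log2 fold change of -0.65 ± 0.61 (SE) and an adjusted p of 1.0 by edgeR. Its 3 vesicle libraries, at 54.1 to 89.1 CPM, lay below the 3 Glutamate libraries, at 91.5 to 121, a separation that 6.27% of all genes showed in either direction. As CPM of the unscaled library total the groups overlapped, with Glutamate 1 at 77.45 below the 3 vesicle libraries at 77.8 to 78.5. The log2 fold change was -0.16 once rRNA share (log2) entered the model. It was -0.016 when the replicate block was added, although the numbers were not taken to pair libraries in this comparison. The other 7 genes overlapped between these groups.

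In Glutamate_secret against Glutamate 0 of 8 genes were called (0% of all genes) and 0 of 8 had an unadjusted p below 0.05 (0.681%). The values ran from -0.80 (Foxo1) to 0.06 (Pik3ca) on the log2 scale, with a median of -0.18. Pik3r1 came closest, at -0.58 ± 0.86 (SE) with an adjusted p of 1.0 by edgeR, and at 0.46 without Glutamate 2. In Glutamate_BPC against Glutamate, 0 of 8 were called (0%) and 0 of 8 had an unadjusted p below 0.05 (1.07%), while 7 of 8 estimates were below 0, with a median of -0.67 beside -0.05 over all genes. Insr had the smallest p, with a log2 fold change of -1.61 ± 1.20 (SE, 95% interval -4.16 to 0.94) and an adjusted p of 1.0 by edgeR. Leaving out 1 library at a time moved it between -2.39 and -0.32, and the latter was reached without Glutamate 2. Pik3ca, at 63.9 to 76.6 CPM, lay below all Glutamate libraries also in this group, and 7.13% of all genes had no overlap between these groups in either direction. On unscaled totals these groups overlapped too, since Glutamate_BPC 2 was at 79.98 CPM and Glutamate 1 at 77.45.

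Against Control, the 4 treated groups again gave 0 called genes of 8 each, and these comparisons share the Control libraries. The share of all genes called was 0.0139% for Glutamate_vesicles and 0% for each of the others. An unadjusted p below 0.05 was found for 1 of 8 in Glutamate_vesicles (11.6% of all genes), 1 of 8 in Glutamate_BPC (11.3%), 0 of 8 in Glutamate_secret (11.8%) and 0 of 8 in Memantine (1.12%). Both single genes were Pik3ca. In Glutamate_vesicles its log2 fold change was -1.52 ± 0.62 (SE) with an adjusted p of 0.355 by edgeR. For Glutamate_BPC the log2 fold change was -1.44 ± 0.62 (SE) with an adjusted p of 0.394 by edgeR. Both rested on Control 1, without which the values were -0.01 and 0.06. In Memantine and Glutamate_secret the estimates of Pik3ca were -0.87 ± 0.61 (SE, adjusted p of 1.0 by edgeR) and -0.80 ± 0.61 (SE, adjusted p of 0.679 by edgeR), and without Control 1 they were 0.63 and 0.70. With the replicate number as a block, which the pairing check allowed for Glutamate_vesicles against Control, no gene of the 8 was called (smallest adjusted p of edgeR 0.167, Pik3ca), while the calls over all genes rose from 2 to 538.

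The replicate number was then tested with the group kept in the model, a test added after the order of the libraries had been seen. By the F test of edgeR 7 of 8 genes differed between numbers at an adjusted p below 0.05, and so did 60.4% of all tested genes, so that the count is not particular to this pathway. Akt1 was the exception with an adjusted p of 0.0656. For number 2 against number 1, 8 of 8 were called beside 61.2% of all genes, and for number 2 against number 3, 4 of 8 (Insr, Irs2, Pik3r1 and Foxo3) beside 41.9%. For number 3 against number 1, 0 of 8 were called beside 1.51%, although Igf1r and Pik3ca had an unadjusted p below 0.05 by edgeR.

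**Figure D3:**
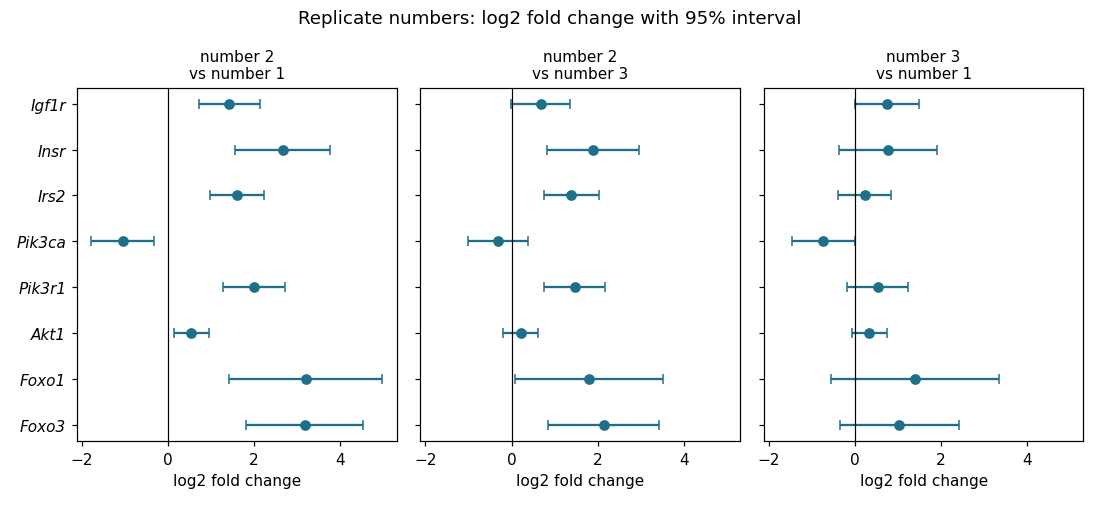
Log2 fold change of the 8 genes between replicate numbers (horizontal axis), with the group kept in the model. Points are estimates of edgeR over 18 libraries and bars their 95% intervals. Between numbers 2 and 1, all genes but Pik3ca lie above 0, from 0.54 for Akt1 to 3.19 for Foxo1.

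Without the rRNA share in the model, number 2 exceeded number 1 most in the FoxO factors, with a log2 fold change of 3.19 ± 0.84 (SE) in Foxo1 (adjusted p = 0.00418 by edgeR) and of 3.17 ± 0.64 in Foxo3. Of the receptors, Insr followed with 2.66 ± 0.53 (adjusted p = 0.00068 by edgeR), while Igf1r, at 1.42 ± 0.34, lay below Pik3r1 and Irs2. Pik3r1 was higher by 1.99 ± 0.34 and Irs2 by 1.61 ± 0.30, and Akt1 by 0.54 ± 0.19 (adjusted p = 0.0245 by edgeR). The median over all genes was 0.12. The direction of these 7 genes held with library totals in place of TMM factors, where the median over all genes shifted to 1.06. Leaving out 1 library at a time kept 7 of the 8 genes called in all 18 fits, whereas Akt1 was called in 14, and not without Control 1, Glutamate 1, Memantine 1 or Glutamate_secret 2. Pik3ca was the only 1 of the 8 below 0, at -1.05 ± 0.34 (adjusted p = 0.0149 by edgeR), and its difference was -0.01 with library totals in place of TMM factors (adjusted p = 0.975) and -0.61 without Control 1.

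The replicate numbers also differed in their share of rRNA, at 13.4% to 43.0% in number 1, 3.04% to 8.15% in number 2 and 6.59% to 26.6% in number 3. In all 6 groups the library with the lowest rRNA share had the highest level of Igf1r, Insr, Irs2, Pik3r1, Foxo1 and Foxo3, including Control, where that library was replicate 3. For Akt1 this held in 4 of 6 groups. At the TMM-scaled library size, Pik3ca was highest in the library with the highest rRNA share in 6 of 6 groups. On unscaled library totals this held in Control, Memantine and Glutamate_vesicles. In Glutamate, Glutamate_secret and Glutamate_BPC, Pik3ca was then highest in replicate 2, at 138.6, 91.94 and 79.98 CPM. With the log2 rRNA share added to the model, 0 of 8 genes differed between the numbers by the F test, beside 0.472% of all genes. The log2 fold change of number 2 against number 1 was then 2.28 in Foxo3, 2.23 in Insr, 1.28 in Pik3r1 and 1.12 in Igf1r. It was 0.75 in Irs2, 0.44 in Foxo1, 0.28 in Pik3ca and 0.06 in Akt1, with adjusted p from 0.144 to 0.897 by edgeR. Foxo1, first in the order without the covariate, lay below 5 of the other genes with it. Number and rRNA share are largely confounded, and their parts in these differences cannot be told apart. Cell type markers moved with the number too. For number 2 against number 1, 4 of 7 microglia markers, 4 of 7 oligodendrocyte lineage markers and 4 of 7 astrocyte markers were called higher and 2 astrocyte markers lower, while 1 of 8 neuron markers was called higher and 2 lower. The summed neuron level was 888 to 3296 CPM in number 1, 465 to 2701 in number 2 and 560 to 1995 in number 3, and their part in the result was not tested.

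**Figure D4:**
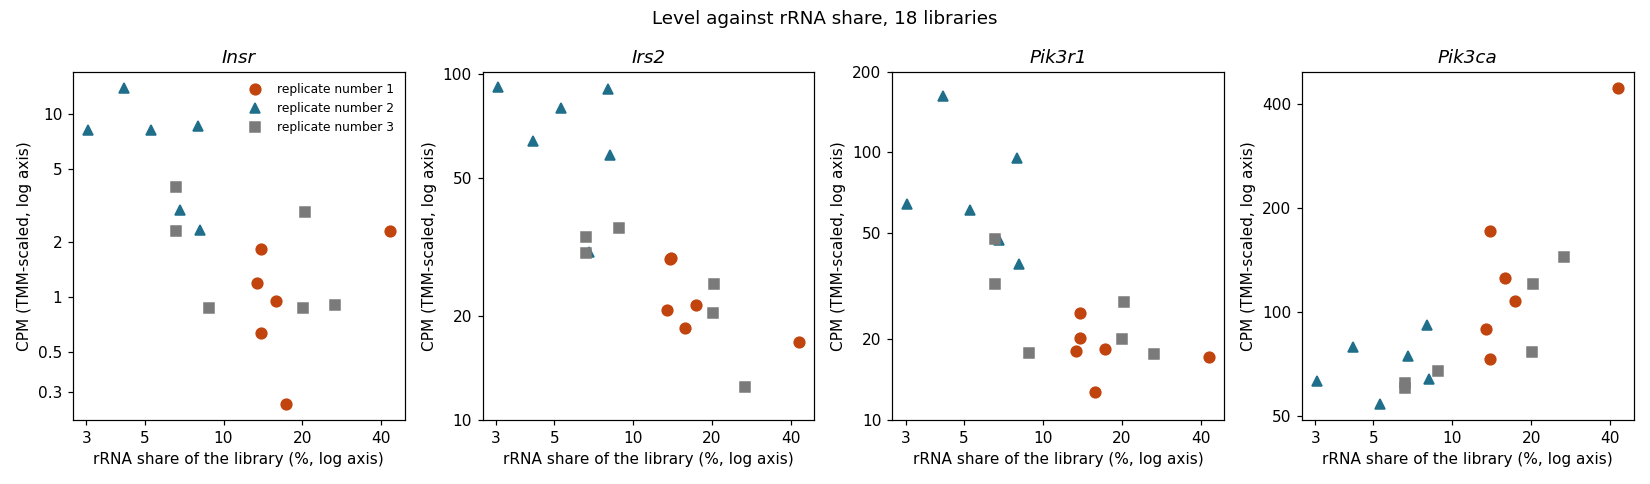
CPM at the TMM-scaled library size (vertical log axis) against the percentage of counts from rRNA (horizontal log axis) in 18 libraries for 4 genes, with symbols for the replicate number. Insr, Irs2 and Pik3r1 are high in libraries poor in rRNA, and Pik3ca is highest, at 446 CPM, in the library with 43.0% rRNA.

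Among the 8 genes, likeness was measured as Pearson's r of log2 CPM over 18 libraries after the mean of each replicate number was removed. It is given as a description, since the libraries share depth, rRNA share and scaling. Insr and Foxo3 were the most alike pair (r = 0.78), followed by Pik3r1 and Foxo1 (r = 0.766). Pik3ca and Akt1 were the most opposed (r = -0.789), that is the catalytic subunit was high where the kinase was low. Pik3ca and its partner Pik3r1 were at r = -0.111. Over all tested genes, the pattern of Pik3ca was most like those of Hspa13 (r = 0.975) and Fitm2 (r = 0.969), and that of Akt1 most like Cap1 (r = 0.939) and Rnf10 (r = 0.934). The nearest genes were Ubap2l and Pkd1 for Igf1r, Dmxl1 and Pds5a for Insr, and Itga6 and Prag1 for Irs2. They were Pafah1b1 and Tnks for Pik3r1, Med12 and Sh3pxd2a for Foxo1, and LOC100365363 and Braf for Foxo3, with r between 0.866 and 0.941.

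The surrounding pathway was followed through 73 further genes in 6 lists, of which 68 were tested. The quasi-likelihood test of edgeR with only the group in the model called none in the 9 group comparisons. It called none in the F test over the groups either. An unadjusted p below 0.05 was found for 6 in Glutamate against Control (1 higher, 5 lower), beside 8.11% of all genes. Against Glutamate it was found for 3 in Glutamate_vesicles (1.08% of all genes), 4 in Memantine (5.08%), 0 in Glutamate_BPC (1.07%) and 1 in Glutamate_secret (0.681%). Against Control there were 9 in Glutamate_vesicles (4 higher, 5 lower, beside 11.6%), 7 in Glutamate_secret (11.8%), 6 in Glutamate_BPC (11.3%) and 0 in Memantine (1.12%). At an adjusted p below 0.05 DESeq2 called 3 in Glutamate against Control, where it called 1.63% of all genes. It called 5 in Glutamate_vesicles (3.39%), 4 in Glutamate_secret (3.08%) and 1 in Glutamate_BPC (1.74%) against Control. With the replicate block in edgeR, 3 were called in Glutamate_vesicles against Control (Grb14, Igfbp3 and Pik3cd), beside 3.74% of all genes. The pairing check allowed the block in that comparison. In the F test over the groups the block called 2 (Foxo6 and Pik3cd), beside 3.45% of all genes. The replicate number separated 38 of the 68 by the F test, a share close to the 60.4% of all genes.

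Of the ligands and binding proteins, 9 of 12 were tested. Igf2, a growth factor that binds the IGF-1 receptor, was at 6.68, 0.401 and 5.01 CPM in Glutamate_vesicles. In the other 15 libraries it did not exceed 1.01 CPM, so that vesicle replicates 1 and 3 stood apart and replicate 2 did not. Its log2 fold change was 3.23 ± 0.89 (SE) against Glutamate (adjusted p of 1.0 by edgeR) and 3.05 ± 0.90 against Control (adjusted p of 0.215). DESeq2 gave an adjusted p of 0.0308 against Control. The test over the 6 groups gave 0.144 by edgeR, 0.0325 with the rRNA covariate and 0.00125 by DESeq2, while the replicate block did not call Igf2. Igfbp3, which binds IGFs outside the cell, was at 171, 174 and 310 CPM in Glutamate_vesicles and at 42.0, 58.7 and 104 in Control. It was at 94.9, 127 and 129 CPM in Glutamate, and reached 193 in Glutamate_secret and 146 in Glutamate_BPC. The log2 fold change of Igfbp3 in Glutamate_vesicles against Control was 1.67 ± 0.45 (SE), with an adjusted p of 0.194 by edgeR and of 0.0335 with the replicate block. Against Glutamate it was 0.90 ± 0.44 (unadjusted p of 0.06 by edgeR), and Glutamate against Control gave 0.77 ± 0.44.

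Of the receptor adaptors, 9 of 9 were tested. Grb14, an adaptor that inhibits the insulin receptor, was at 30.0, 31.8 and 24.6 CPM in Control and at 14.3, 6.54 and 10.7 in Glutamate. It was at 11.6, 6.26 and 6.12 CPM in Glutamate_vesicles. There the log2 fold change against Control was -1.85 ± 0.56 (SE), with an adjusted p of 0.221 by edgeR and of 0.0351 with the replicate block. Cell type markers differed in the same comparison, in which 4 of 7 oligodendrocyte lineage markers were higher and 6 of 8 neuron markers lower in Glutamate_vesicles at an unadjusted p below 0.05. The oligodendrocyte lineage markers summed to 880 to 1397 CPM in Glutamate_vesicles, 374 to 665 in Control and 735 to 974 in Glutamate. Fibroblast and mural cell markers summed to 11.07 to 18.21 CPM in Glutamate_vesicles, 3.71 to 10.45 in Control and 5.68 to 11.94 in Glutamate. In Glutamate_secret they spanned 6.14 to 19.51 CPM. Of the 3 tested, 1 was higher in Glutamate_vesicles than in Control at an unadjusted p below 0.05. The part of these cell types in the values of Igf2, Igfbp3 and Grb14 was not tested. Sh2b2, a further adaptor of the receptor, was at 8.57 to 11.7 CPM in Control, 3.89 to 5.04 in Glutamate and 5.68 to 24.2 in Memantine. Its log2 fold change was -1.26 ± 0.47 (SE) in Glutamate against Control and 1.53 ± 0.47 in Memantine against Glutamate, with adjusted p of 0.448 and 0.611 by edgeR.

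**Figure D5:**
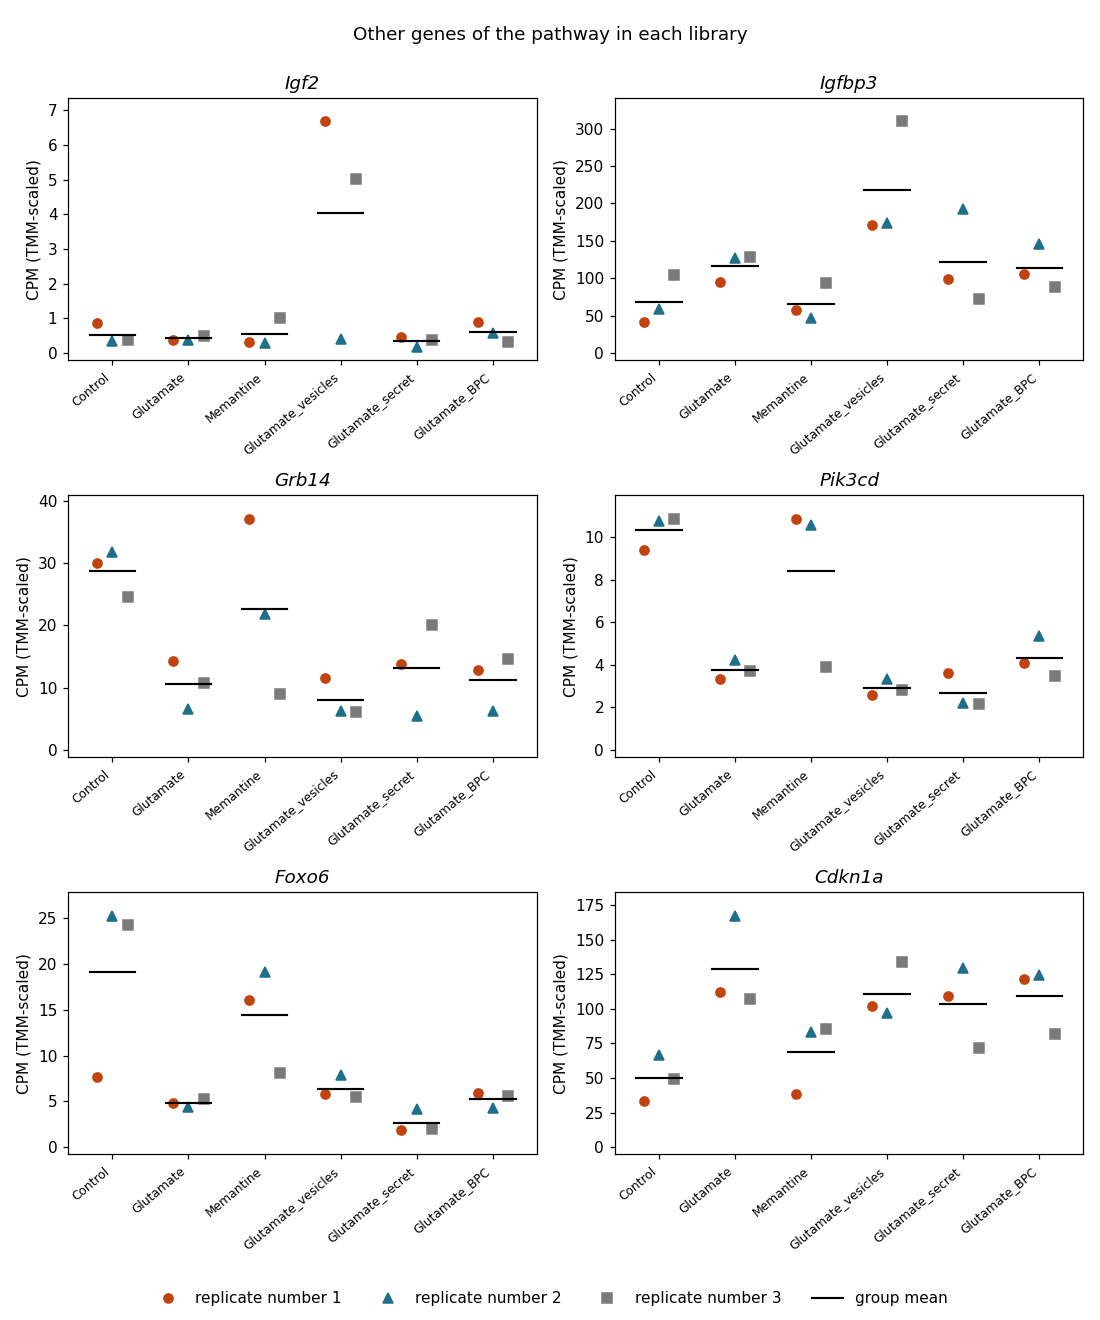
CPM at the TMM-scaled library size (vertical axis) of 6 further pathway genes in 18 libraries by group (horizontal axis), with symbols for the replicate number and bars for the mean of 3 libraries. Igf2 stands out in vesicle replicates 1 and 3, and the means of Grb14 and Pik3cd are higher in Control than in Glutamate.

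Among the other class I PI3K subunits 5 of 7 were tested. Pik3cd, the catalytic subunit p110δ, was at 9.42, 10.7 and 10.9 CPM in Control and at 3.36, 4.25 and 3.70 in Glutamate. In Memantine it was at 10.8, 10.6 and 3.88 CPM, so that replicates 1 and 2 were near Control and replicate 3 near Glutamate. The log2 fold change in Glutamate against Control was -1.45 ± 0.42 (SE, adjusted p of 0.292 by edgeR), and in Glutamate_vesicles against Control -1.83 ± 0.42 (adjusted p of 0.162, and of 0.0266 with the replicate block). In Glutamate_secret against Control it was -1.96 ± 0.43 (adjusted p of 0.126 by edgeR). Other fits called Pik3cd there, with an adjusted p of 0.00159 by DESeq2, 0.0124 by the likelihood-ratio test and 0.0275 with the rRNA covariate. For Glutamate against Control DESeq2 gave 0.0305, while the likelihood-ratio test and the replicate block did not call it. The test over the 6 groups gave 0.134 by edgeR, 0.0204 with the replicate block and 2.44e-05 by DESeq2. Pik3r2, the regulatory subunit p85β, was at 107 to 146 CPM in Control and 64.6 to 76.8 in Glutamate_secret, with a log2 fold change of -0.79 ± 0.28 (SE, adjusted p of 0.266 by edgeR). Against Control the value was -0.53 ± 0.28 in Glutamate, -0.58 ± 0.28 in Glutamate_vesicles, -0.55 ± 0.28 in Glutamate_BPC and -0.09 ± 0.28 in Memantine.

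Of the FoxO factors and known FoxO targets 20 of 20 were tested. Foxo6, a FoxO factor of the brain, was at 7.71, 25.3 and 24.2 CPM in Control and at 4.78, 4.38 and 5.25 in Glutamate. It was at 16.1, 19.1 and 8.12 CPM in Memantine and at 1.89, 4.11 and 1.99 in Glutamate_secret. Its log2 fold change was -2.00 ± 0.48 (SE) in Glutamate and -2.81 ± 0.50 in Glutamate_secret against Control, with adjusted p of 0.282 and 0.126 by edgeR. Other fits passed the threshold, and Foxo6 in Glutamate_secret had an adjusted p of 7.4e-05 by DESeq2, 0.000903 by the likelihood-ratio test of edgeR, 0.0147 with the replicate block and 0.0104 with the rRNA covariate. The F test over the groups gave 0.100 for Foxo6 by edgeR, 0.0179 with the rRNA covariate and 8.64e-07 by DESeq2. Cdkn1a, which encodes the cell cycle inhibitor p21, was at 33.7, 66.4 and 49.6 CPM in Control and at 112, 167 and 107 in Glutamate. Its log2 fold change was 1.37 ± 0.38 (SE, adjusted p of 0.282 by edgeR). The adjusted p was 0.0289 by DESeq2 and 0.0435 by edgeR with the rRNA covariate, while the likelihood-ratio test and the replicate block did not call it. Foxo6 and Pik3cd were lower in the groups whose neuron markers were lower, and 5 of 8 neuron markers were lower in Glutamate than in Control at an unadjusted p below 0.05. The part of the neuron share in their values was not tested.

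The phosphatases of the pathway, which remove PIP3 or its products, were all 8 tested, and 0 had an unadjusted p below 0.05 in any group comparison by edgeR. Inpp4a and Inpp4b had the smallest p among them, and Inpp4a was at 13.1, 50.6 and 49.7 CPM in Control and at 7.36, 32.2 and 15.2 in Glutamate. For number 2 against number 1, 6 of 8 phosphatases were called, all higher, beside 61.2% of all genes. Of the Akt kinases with the mTOR and GSK3 branch 17 of 17 were tested, and Eif4ebp1, a repressor of translation controlled by mTOR, was the single gene with an unadjusted p below 0.05 in a group comparison. It was at 23.7, 30.1 and 32.9 CPM in Control and at 97.9, 72.4 and 83.4 in Glutamate_BPC, with a log2 fold change of 1.55 ± 0.51 (SE, adjusted p of 0.303 by edgeR). Against Control its log2 fold change was also 1.54 ± 0.51 in Glutamate_vesicles, 1.32 ± 0.51 in Glutamate_secret, 1.05 ± 0.50 in Glutamate and 0.38 ± 0.50 in Memantine. Glutamate_BPC against Glutamate gave 0.49 ± 0.50. Tsc2, an inhibitor of mTOR, was at 24.3 to 52.7 CPM in Control and 29.8 to 43.6 in Glutamate.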

How the data were processed

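The deposited values are expected counts of reads per gene. According to the study's methods, the authors trimmed the reads, quantified them with Salmon against Ensembl rn6 transcripts with the genome as decoy, and summed transcripts to genes with tximport. Platform and library kit differ between labels and methods. Tests had been planned on raw counts, and the values were rounded to whole numbers for them. Genes were kept with filterByExpr of edgeR 4.0.16 in R 4.3.3 (minimum count 10, minimum total count 15). TMM-scaled library sizes and a model with 1 mean per group over all 18 libraries were used for two-sided quasi-likelihood tests and p-values were adjusted by Benjamini-Hochberg, with a call at an adjusted value below 0.05. SE and 95% intervals came from the F statistic, and log2 CPM used a prior count of 2. DESeq2 1.42.0, the likelihood-ratio test, RLE factors, no filter, a replicate block, the log2 rRNA share as a covariate, only the 2 groups compared and leaving out each library were alternatives. Library totals without TMM and the test of replicate numbers were added after the data had been seen.

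Replicate numbers were taken to pair libraries where every same-numbered pair correlated above 0.1 in its deviations from the group means. This held for Memantine, Glutamate_secret and Glutamate_BPC against Glutamate and for Glutamate_vesicles against Control. Members and gene lists were chosen with earlier results of these data known. Named were all 8 members, per comparison the members with an unadjusted p below 0.05 or else the smallest p, and per list the called genes or else the 2 with the smallest F test p. The 2 genes most like each member were named as well. Tests were tried on simulated counts. Counts of overlapping genes can be shared, because no source states the strand setting.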

Additional observations from a re-analysis of the deposited data

How the results depend on the processing

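The count of 0 called members held in the F test over the groups and in all 9 group comparisons under every alternative. The smallest adjusted p of edgeR was 0.0508 (Pik3ca, Glutamate_BPC against Control, replicate block with rRNA covariate), where the numbers were not taken to pair libraries. Counts of members with an unadjusted p below 0.05 stayed between 0 and 2. The replicate block changed no call of a member. Over all genes, calls in a group comparison reached at most 2 by the main test, 488 by DESeq2, 223 by the likelihood-ratio test and 700 with the replicate block. The 700 calls were in Glutamate_secret against Control, where the numbers were not taken to pair libraries. Nor were they in Glutamate against Control, where Foxo6 had an adjusted p of 0.0457 by edgeR with the block and 0.00623 by DESeq2.

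With the rRNA covariate, Igf1r in Memantine against Glutamate changed from 0.41 to -0.065 and Pik3ca between numbers 2 and 1 from -1.05 to 0.28, and 0 members in place of 7 differed between the replicate numbers. Pik3ca in Memantine against Control, where the numbers were not taken to pair libraries, was 0.057 with block and covariate. The cause was not tested. Leaving out 1 library at a time, Pik3ca against Control ranged from -1.28 to 0.64 in Glutamate, from -1.40 to 0.63 in Memantine, from -1.22 to 0.70 in Glutamate_secret and from -1.86 to 0.059 in Glutamate_BPC. Igf1r in Memantine against Glutamate ranged from -0.20 to 0.91 and Pik3r1 in Glutamate_secret against Glutamate from -1.64 to 0.46. The members differing between replicate numbers were then 6 to 8. Foxo1, Foxo3, Insr and Igf1r are limited by depth, with 10 counts or fewer in 10, 6, 6 and 2 of 18 libraries.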
